A study of Mus musculus with 22 samples.

Results

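Genes that mark neural progenitors and newly formed neurons were followed through the nucleus accumbens of male mice given morphine or saline, with or without nonabsorbable antibiotics. The genes were taken by name: Fabp7, Fabp5, Nes, Vim, Sox2, Sox4, Sox11, Dcx and Tubb2b. These are 9 of the 24061 genes of the deposited count table, and all 9 passed the filter on low counts, which kept 14564 genes. The set was selected on read counts of these same libraries, because Fabp7 and Tubb2b were lower with antibiotics under morphine. That contrast, antibiotics minus water in morphine mice, is therefore described here without a test for any of the 9. Fabp7 and Tubb2b are tested only between the saline groups, which hold none of the libraries of that contrast. Earlier results of these data were known when the genes were chosen, so these tests are not fully independent of the choice.

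Bulk RNA of the nucleus accumbens, a reward-related part of the ventral striatum, was sequenced from C57BL/6J males aged 7 to 9 weeks, raised conventionally and housed in groups free of specific pathogens. The groups were 5 libraries from morphine-treated mice on nonabsorbable antibiotics (Abx), 5 from morphine-treated mice on water (H2O), 6 from saline-treated antibiotic mice and 6 from saline-treated water mice. Morphine was given at 20 mg/kg per day for 7 days. Nonabsorbable antibiotics act within the gut and deplete its microbiome, which the labels call normal in water mice. The labels number the libraries but do not say whether each came from a different animal or from a pool, so p-values measure only the spread between these libraries.

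In the embryonic brain, radial glia act both as stem cells and as guides for migrating neurons, and they carry the lipid chaperone Fabp7, the filament proteins nestin and vimentin, and the transcription factor Sox2. Their neuronal daughters switch on Sox4 and Sox11, and assemble the microtubules of growing processes from tubulins such as Tubb2b with the help of doublecortin. In the adult striatum, which borders the germinal zone of the lateral ventricle, Fabp7, Vim and Sox2 persist in astrocytes and other glia, Nes and Vim are also present in vessel cells, and Dcx marks migrating neuroblasts.

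The upstream sequence is shown for Fabp7, the member with the largest difference, and for Nes and Sox11, the only members that passed a test. Each is the 250 bases before the start of the gene in RefSeq on GRCm38.p6, written 5′ to 3′ along the gene's own strand. Capitals mark a match, on either strand, to the letters TGGGAA (bound by RBPJ, the DNA-binding partner of Notch) or TGTTCT (the half-site of the glucocorticoid receptor). Fabp7 is at chr10:57784673-57784922 on the plus strand, Nes at chr3:87970843-87971092 on the plus strand and Sox11 at chr12:27342719-27342968 on the minus strand.
Fabp7: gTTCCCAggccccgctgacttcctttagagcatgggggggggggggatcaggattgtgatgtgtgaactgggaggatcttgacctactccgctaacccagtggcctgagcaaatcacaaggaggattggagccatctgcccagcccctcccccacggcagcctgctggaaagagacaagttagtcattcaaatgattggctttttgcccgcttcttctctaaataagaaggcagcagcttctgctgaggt
Nes: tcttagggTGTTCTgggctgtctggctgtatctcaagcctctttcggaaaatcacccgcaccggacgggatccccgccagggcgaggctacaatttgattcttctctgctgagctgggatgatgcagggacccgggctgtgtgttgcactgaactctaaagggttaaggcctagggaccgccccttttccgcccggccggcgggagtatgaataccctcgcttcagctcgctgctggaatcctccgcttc
Sox11: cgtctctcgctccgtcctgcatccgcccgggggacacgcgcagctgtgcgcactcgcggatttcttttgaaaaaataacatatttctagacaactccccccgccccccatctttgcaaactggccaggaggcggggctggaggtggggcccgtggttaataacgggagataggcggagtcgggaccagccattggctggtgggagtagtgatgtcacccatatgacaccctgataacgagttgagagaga
Promoters of 7 of the 9 members were in the table; Tubb2b and Fabp5 were not matched. Fabp7 held TGGGAA on the strand opposite to the gene, with the match starting at base 2, and Sox4 held it on its own strand at base 151. Nes held TGTTCT at base 9. None of the 7 held AACAAT, a motif bound by SOX proteins. In 250-base windows of all 32851 promoters, TGGGAA was found in 21.6%, TGTTCT in 16.1% and AACAAT in 9.42%. A match is a description of letters and not a binding site.

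Tubb2b and its neighbour Tubb2a on chromosome 13 encode nearly the same protein, which matters for how reads can be assigned to them. The last 60 coding bases of each, from GENCODE vM21 transcripts, are shown with the bases that differ in capitals.
Tubb2b: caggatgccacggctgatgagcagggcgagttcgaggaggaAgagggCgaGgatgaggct
Tubb2a: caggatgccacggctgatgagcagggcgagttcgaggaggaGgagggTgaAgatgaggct
The coding sequences shared 1288 of 1335 bases (96.5%), and 57 of these last 60. Of all 50-base stretches of the Tubb2b transcript, 39.3% also occurred in another gene, mainly Tubb2a. For Fabp5 the share was 21.1%, mainly with the pseudogene Gm6166, for Dcx it was 0.255%, and for each of the other 6 members it was 0%. Reads from shared stretches could have been set aside or assigned to the other copy, so the levels of Tubb2b and Fabp5 are less certain than those of the rest.

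Gene counts ran from 9357299 to 15330947 per library. Members were counted between 110 (Fabp7) and 2399 (Tubb2b) times in a library. Levels are given as CPM, gene counts scaled to library size with TMM factors, and changes as log2 changes with their standard error. Striatal transcripts were abundant: the 13 tissue markers of the accumbens summed to between 4083 and 8156 CPM in every library, and none of the 13 passed in any contrast (edgeR, adjusted p under 0.05; 0 or 1 had an unadjusted p under 0.05 per contrast, and DESeq2 called 0). Libraries also differed in a length slope, a trend on log2 transcript length. It was taken from a library's log2 CPM after each gene's mean over all libraries was subtracted, so it is relative to the average library. It averaged 0.0435 ± 0.0112 (SD, n = 5) in antibiotic morphine mice and 0.0391 ± 0.00743 (SD, n = 5) in water morphine mice, against -0.0178 ± 0.0365 (SD, n = 6) in antibiotic saline mice and -0.0510 ± 0.0266 (SD, n = 6) in water saline mice. In water mice every morphine library (0.0287 to 0.0476) had a higher slope than every saline library (-0.0784 to -0.0119). With the slope as a covariate, its part and that of morphine are therefore hard to tell apart there. A batch is not named in the labels.

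Fabp7 encodes brain lipid-binding protein, a carrier of long-chain fatty acids such as docosahexaenoic acid. The 5 antibiotic morphine libraries had 9.95, 9.92, 11.7, 9.71 and 13.1 CPM, against 25.0, 31.0, 26.4, 34.7 and 26.7 CPM in the 5 water morphine libraries. Antibiotic saline libraries ran from 17.0 CPM through a median of 21.9 to 27.5, and water saline libraries from 23.8 through 25.3 to 29.3. All 5 antibiotic morphine libraries lay below every other library of the study, and the other groups overlapped. The level averaged 10.9 ± 1.49 CPM in antibiotic morphine mice and 28.8 ± 3.99 CPM in water morphine mice (SD, n = 5 each), a log2 change of -1.40 ± 0.12 or 0.379-fold. Morphine minus saline in antibiotic mice gave -1.01 ± 0.118 (0.497-fold), in a contrast where 3.17% of all genes were lower without overlap. In water mice it gave 0.14 ± 0.109, with 4 of the 5 morphine libraries above the saline mean. The difference between these morphine changes was -1.15 ± 0.16. These contrasts share libraries with the one behind the choice and carry no test. In bulk tissue, fewer cells of a type and less RNA per cell cannot be told apart; markers of glia that were lower in the same group are given further on.

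Between the saline groups, which hold none of the libraries of the contrast behind the choice, Fabp7 averaged 22.01 ± 3.90 CPM in antibiotic mice and 26.2 ± 2.35 CPM in water mice (SD, n = 6 each). The log2 change was -0.26 ± 0.106, with a 95% interval of -0.46 to -0.05, and 5 of 6 antibiotic libraries lay below the water mean. It did not pass the test (edgeR, unadjusted p = 0.0238, adjusted p = 0.212). With the length slope as a covariate, the described log2 change of Fabp7 was 0.44 for morphine in water mice and -0.79 for morphine in antibiotic mice, and the part of the slope in it was not tested. Among antibiotic against water mice under morphine, whose mean slopes were 0.0435 and 0.0391, the change ranged from -1.48 to -1.33 when each library was left out in turn, and from -1.46 to -1.36 under the other settings.

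Fabp5, the epidermal relative that binds the same kinds of fatty acid, showed no such separation. It had between 109 and 123 CPM in antibiotic morphine mice, 96.0 and 117 in water morphine mice, 98.0 and 119 in antibiotic saline mice, and 106 and 118 in water saline mice. The groups overlapped in every comparison. The log2 change between the saline groups was -0.01 ± 0.0527 (edgeR, adjusted p = 0.945), with a 95% interval of -0.11 to 0.09. Morphine gave 0.06 ± 0.055 in antibiotic mice (edgeR, adjusted p = 0.525) and -0.08 ± 0.0551 in water mice (edgeR, adjusted p = 0.414). In antibiotic morphine mice the change against water morphine mice was 0.13 ± 0.0573, with all 5 libraries above the water mean. The difference between the morphine changes was 0.14 ± 0.0779 (edgeR, adjusted p = 0.477). Fabp5 varied least of the 9 inside groups, at percentile 18.5 of all genes tested.

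The coding sequences of Fabp7 and Fabp5 are 55.4% identical, so reads of these relatives are not easily confused, and their ratio within a library removes any scaling between libraries. The ratio of Fabp7 to Fabp5 counts was 0.0857, 0.0805, 0.105, 0.0892 and 0.118 in antibiotic morphine libraries. In water morphine libraries it was 0.258, 0.290, 0.276, 0.298 and 0.255. It averaged 0.202 ± 0.0416 in antibiotic saline mice and 0.238 ± 0.0210 in water saline mice (SD, n = 6 each). The antibiotic morphine ratios were below all others, a description since Fabp7 was chosen on them, and the saline groups overlapped. Their log2 ratio differed by -0.25 (two-sided exact permutation test of 2 ratios, p = 0.102, adjusted p = 0.102; the smallest possible p is 0.00216), with 4 of 6 antibiotic libraries below the water mean.

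**Figure D1:**
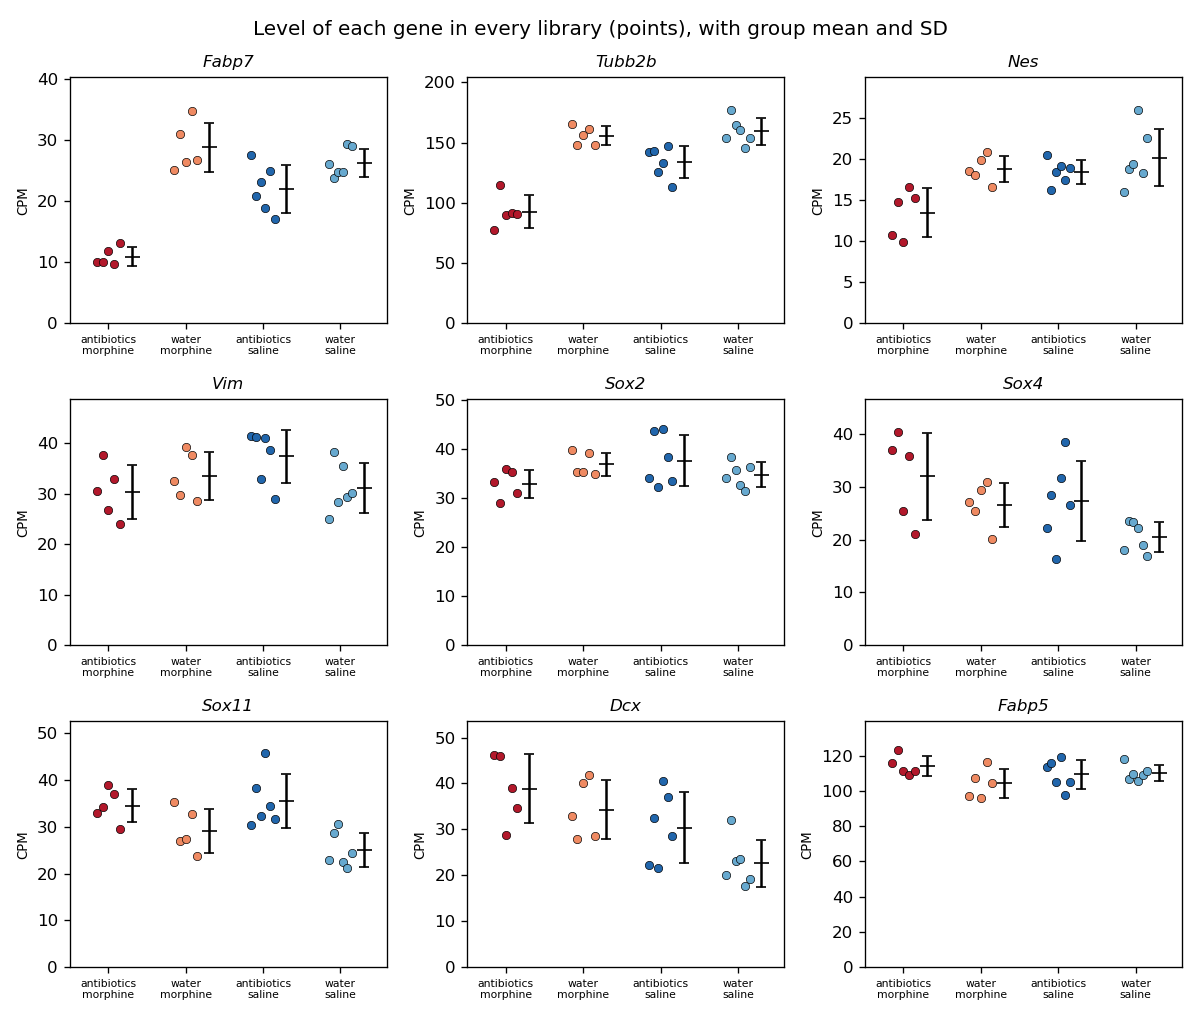
Level of each of the 9 genes in CPM (vertical axes, from 0) in every library (points) of the 4 groups, with the group mean and SD beside them. Fabp7 in antibiotic morphine libraries lies between 9.71 and 13.1 CPM, below every other library, while Fabp5 lies between 96.0 and 123 CPM throughout.

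Tubb2b encodes a beta-tubulin of growing neurons. The 5 antibiotic morphine libraries had 77.2, 115, 89.5, 91.1 and 90.8 CPM, against 165, 148, 156, 162 and 148 CPM in the 5 water morphine libraries. Antibiotic saline libraries ran from 113 CPM through a median of 137 to 148, and water saline libraries from 145 through 157 to 177. The antibiotic morphine libraries lay below all water libraries, and library 2 of that group (115 CPM) lay above the lowest antibiotic saline library. The level averaged 92.7 ± 13.7 CPM in antibiotic morphine mice and 156 ± 7.85 CPM in water morphine mice (SD, n = 5 each), a log2 change of -0.75 ± 0.0815 or 0.596-fold. Morphine minus saline gave -0.53 ± 0.0787 in antibiotic mice and -0.03 ± 0.077 in water mice, and the difference between these was -0.50 ± 0.11. None of these carries a test.

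In the saline groups Tubb2b averaged 134 ± 13.1 CPM in antibiotic mice and 159 ± 11.04 CPM in water mice (SD, n = 6 each). All 6 antibiotic libraries lay below the water mean, and the groups overlapped between 145 and 148 CPM. The log2 change of -0.25 ± 0.0739 (95% interval -0.40 to -0.11) had an unadjusted p of 0.0024 and did not pass (edgeR, adjusted p = 0.0827). Without library 2 of the antibiotic morphine mice, it passed with a log2 change of -0.24 (edgeR, adjusted p = 0.0445). That library is in neither saline group and enters only through the shared filter, scaling and estimate of spread. Over all settings the adjusted p of Tubb2b ran from 0.044 to 0.35.

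Tubb2a, the near-identical neighbour, did not pass in any contrast, with log2 changes of -0.07 ± 0.114 for antibiotics under morphine (edgeR, adjusted p = 0.741) and 0.13 ± 0.105 for antibiotics under saline (edgeR, adjusted p = 0.548). The ratio of Tubb2b to Tubb2a counts was 0.188, 0.314, 0.270, 0.239 and 0.263 in antibiotic morphine libraries. It was 0.422, 0.396, 0.345, 0.511 and 0.381 in water morphine libraries. The ranges of these groups did not overlap. Antibiotic saline mice averaged 0.344 ± 0.0589 and water saline mice 0.444 ± 0.0699 (SD, n = 6 each). The log2 ratio between the saline groups differed by -0.37, with all 6 antibiotic libraries below the water mean (two-sided exact permutation test of 2 ratios, p = 0.0303, adjusted p = 0.0606), which is not past 0.05 after adjustment.

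**Figure D2:**
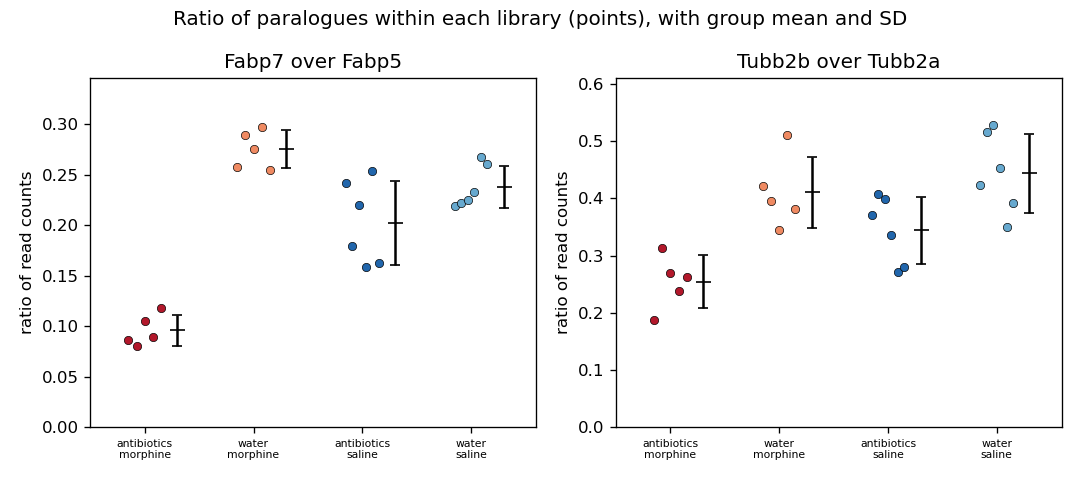
Ratio of read counts of Fabp7 to Fabp5 (left) and of Tubb2b to Tubb2a (right) in every library (points), with group mean and SD; vertical axes start at 0. Both group means are lowest in antibiotic morphine mice, at 0.0958 ± 0.0155 and 0.255 ± 0.0462.

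Of 15 other tubulin genes, 2 passed as lower and 0 as higher with antibiotics under morphine, a share to be read against the 9.58% of all genes called lower in that contrast. Tubd1, delta-tubulin of the centriole, had 2.09 ± 0.601 CPM in antibiotic and 4.01 ± 0.379 CPM in water morphine mice (log2 change -0.92 ± 0.183; edgeR, adjusted p = 0.00116). Tubb6 was the other, at -0.55 ± 0.132 (edgeR, adjusted p = 0.00513). The most abundant tubulins did not pass there: Tubb4a had -0.23 ± 0.0899, Tuba1a -0.23 ± 0.0931 and Tubb5 -0.20 ± 0.0825 (edgeR, adjusted p = 0.0787, 0.0958 and 0.0955). The median over the 15 was -0.20, against 0.000836 over all genes tested. Under morphine against saline in antibiotic mice 2 of 15 passed as lower, Tuba1c and Tubd1, against 6.62% of all genes, with a median of -0.21; DESeq2 called 5 of 15 lower there. In each of the 2 comparisons with water saline mice 0 of 15 passed (edgeR; 1 with an unadjusted p under 0.05 in each, and 0 by DESeq2).

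Dcx, on the X chromosome, encodes doublecortin, which stabilises microtubules in migrating neuroblasts. Its levels were 46.1, 46.0, 28.7, 39.0 and 34.7 CPM in antibiotic morphine mice and 32.9, 28.0, 40.1, 41.9 and 28.6 CPM in water morphine mice. Antibiotic saline libraries ran from 21.6 CPM through a median of 30.5 to 40.5, and water saline libraries from 17.6 through 21.7 to 31.99. The water saline libraries were mostly the lowest, and all groups overlapped. Against water saline mice the log2 change was 0.60 ± 0.181 with morphine in water mice (1.52-fold, all 5 morphine libraries above the saline mean). It lay at the threshold without passing it (edgeR, adjusted p = 0.0501), and it passed with DESeq2 (adjusted p = 0.0119), limma-voom (adjusted p = 0.0365) and the water libraries alone (edgeR, adjusted p = 0.0394). It also passed without library 4 of the water saline mice, library 3 of either morphine group, or library 1, 3, 4 or 5 of the antibiotic saline mice (edgeR, adjusted p between 0.0238 and 0.0482). With the length slope as covariate the adjusted p was 0.74 (edgeR), in a contrast where slope and morphine are hard to tell apart.

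The other pairwise changes of Dcx were also above 0 without passing. Antibiotics under saline gave 0.43 ± 0.177 (edgeR, adjusted p = 0.218), and morphine in antibiotic mice 0.36 ± 0.178 (edgeR, adjusted p = 0.202). The described change with antibiotics under morphine was 0.18 ± 0.184, and the difference between the morphine changes was -0.25 ± 0.255 (edgeR, adjusted p = 0.749). Dcx was thus not lower in the group where Tubb2b was lowest. Dcx varied widely among libraries of 1 group, at percentile 83.2 of the within-group SD of all genes tested.

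Nes encodes nestin, an intermediate filament protein of neural stem cells and of some vessel cells. The antibiotic morphine libraries had 10.8, 14.8, 9.90, 16.6 and 15.3 CPM, against 18.5, 18.1, 19.9, 20.8 and 16.6 CPM in the water morphine libraries. Antibiotic saline libraries ran from 16.2 CPM through a median of 18.6 to 20.5, and water saline libraries from 16.0 through 19.1 to 26.0. The antibiotic morphine libraries overlapped with both saline groups. They did not overlap with water morphine libraries, though only by the step between 16.63 and 16.65 CPM.

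Nes fell with morphine in antibiotic mice, to 13.5 ± 2.96 CPM (SD, n = 5) in morphine mice, against 18.4 ± 1.47 CPM (SD, n = 6) in saline mice. The log2 change was -0.45 ± 0.125 (0.734-fold; edgeR, adjusted p = 0.0209), and all 5 morphine libraries lay below the saline mean. The call was lost without library 1 of the antibiotic saline mice (adjusted p = 0.0549, edgeR) and without library 1 or 3 of the antibiotic morphine mice (0.0697 and 0.0726). It was also lost with the length slope as covariate (-0.58, adjusted p = 0.0975). In water mice morphine gave -0.10 ± 0.121 (edgeR, adjusted p = 0.675), and the difference between the morphine changes, -0.35 ± 0.174, did not pass (edgeR, adjusted p = 0.425). Antibiotics minus water was -0.48 ± 0.128 under morphine, as a description, and -0.13 ± 0.117 under saline (edgeR, adjusted p = 0.601).

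Vim encodes vimentin, the filament partner of nestin, which is also abundant in endothelium and reactive astrocytes. Antibiotic morphine libraries held between 24.0 and 37.8 CPM, water morphine libraries between 28.6 and 39.3, antibiotic saline libraries between 29.1 and 41.5, and water saline libraries between 25.1 and 38.4. All groups overlapped, and Vim passed in none of the 4 tests. Morphine in antibiotic mice gave -0.30 ± 0.126 (edgeR, adjusted p = 0.122). This passed without library 2 of the antibiotic morphine mice (-0.39; edgeR, adjusted p = 0.0432) and came to -0.07 with the length slope as covariate. Morphine in water mice gave 0.11 ± 0.126 (edgeR, adjusted p = 0.655), and antibiotics under morphine -0.15 ± 0.131 as a description. Antibiotics under saline gave 0.27 ± 0.121 (edgeR, adjusted p = 0.261), and the difference between the morphine changes was -0.41 ± 0.178 (edgeR, adjusted p = 0.343). Among 10 other intermediate filament genes that could be tested of 13, Lmnb2, lamin B2 of the nuclear envelope, alone passed: with antibiotics under morphine, where 8.42% of all genes were called higher, it rose by 0.20 ± 0.067 (edgeR, adjusted p = 0.0403). DESeq2 called 2 of the 10 higher there.

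Sox2, a transcription factor that keeps progenitors undifferentiated and remains on in glia, stayed within a narrow range. Antibiotic morphine libraries had between 29.1 and 35.9 CPM, water morphine libraries between 34.9 and 39.8, antibiotic saline libraries between 32.3 and 44.1, and water saline libraries between 31.5 and 38.4. Morphine in antibiotic mice gave -0.20 ± 0.0811, with all 5 libraries below the saline mean and an unadjusted p of 0.0241 that did not pass (edgeR, adjusted p = 0.115). The changes with antibiotics under saline (0.12 ± 0.0775) and with morphine in water mice (0.09 ± 0.0806) did not pass (edgeR, adjusted p = 0.465 and 0.573). The difference between the morphine changes was -0.28 ± 0.114 (edgeR, adjusted p = 0.30), and the described change with antibiotics under morphine was -0.17 ± 0.084. Sox2ot, the long noncoding RNA whose gene contains Sox2, averaged 28.2 ± 2.70 CPM in antibiotic morphine mice and 42.2 ± 4.55 CPM in water morphine mice (SD, n = 5 each). It was not a member and passed as lower in that comparison (log2 change -0.57 ± 0.0855; edgeR, adjusted p = 7.25e-05), without overlap of the groups. There 9.58% of all genes were called lower and 6.82% were lower without overlap. Sox2ot did not pass with antibiotics under saline (-0.30 ± 0.0785, edgeR, adjusted p = 0.0503), with all 6 antibiotic libraries below the water mean. Nor did it pass with morphine, at -0.23 ± 0.0834 in antibiotic mice and 0.04 ± 0.0807 in water mice (edgeR, adjusted p = 0.0679 and 0.836). Whether counting used strand is not given in the sources used here, and reads of the overlapping genes may not be fully separated.

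Sox11 and Sox4 encode related SoxC transcription factors that turn on neuronal genes, among them Dcx, in newborn neurons. Sox11 had 32.9, 34.3, 38.9, 37.1 and 29.7 CPM in antibiotic morphine mice and 35.2, 26.9, 27.4, 32.8 and 23.7 CPM in water morphine mice. Antibiotic saline libraries ran from 30.3 CPM through a median of 33.4 to 45.8, and water saline libraries from 21.3 through 23.6 to 30.6. Of the saline groups, library 1 of the antibiotic mice (30.3 CPM) alone lay below the highest water library (30.6 CPM).

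Sox11 rose with antibiotics under saline. It averaged 35.5 ± 5.76 CPM in antibiotic mice and 25.1 ± 3.73 CPM in water mice (SD, n = 6 each), a log2 change of 0.50 ± 0.112 or 1.42-fold (edgeR, adjusted p = 0.0262), with all 6 antibiotic libraries above the water mean. The call was lost without library 3, 6, 8 or 9 of the water saline mice (adjusted p = 0.0728, 0.0536, 0.059 and 0.0536, edgeR) or without library 4 of the antibiotic saline mice (0.084). It was also lost when the saline libraries alone entered the fit (0.0558) and with the length slope as covariate (0.0889), although the change stayed between 0.42 and 0.56 in all settings tried. Under morphine, antibiotics minus water was 0.25 ± 0.12 as a description, with all 5 antibiotic libraries above the water mean. Morphine gave 0.22 ± 0.117 in water mice (edgeR, adjusted p = 0.274) and -0.04 ± 0.115 in antibiotic mice (edgeR, adjusted p = 0.879), and the difference between these was -0.26 ± 0.164 (edgeR, adjusted p = 0.554).

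Sox4 ranged most widely inside groups, at percentile 85.0 of all genes tested. Antibiotic morphine libraries had between 21.1 and 40.4 CPM, water morphine libraries between 20.1 and 30.9, antibiotic saline libraries between 16.3 and 38.5, and water saline libraries between 16.9 and 23.4. The groups overlapped throughout. Antibiotics under saline gave 0.42 ± 0.182 (edgeR, adjusted p = 0.242) and morphine in water mice 0.38 ± 0.189 (edgeR, adjusted p = 0.234), neither past the threshold. Morphine in antibiotic mice gave 0.23 ± 0.185 (edgeR, adjusted p = 0.469), and the difference between the morphine changes was -0.16 ± 0.265 (edgeR, adjusted p = 0.86). Antibiotics under morphine gave 0.26 ± 0.192 as a description.

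**Figure D3:**
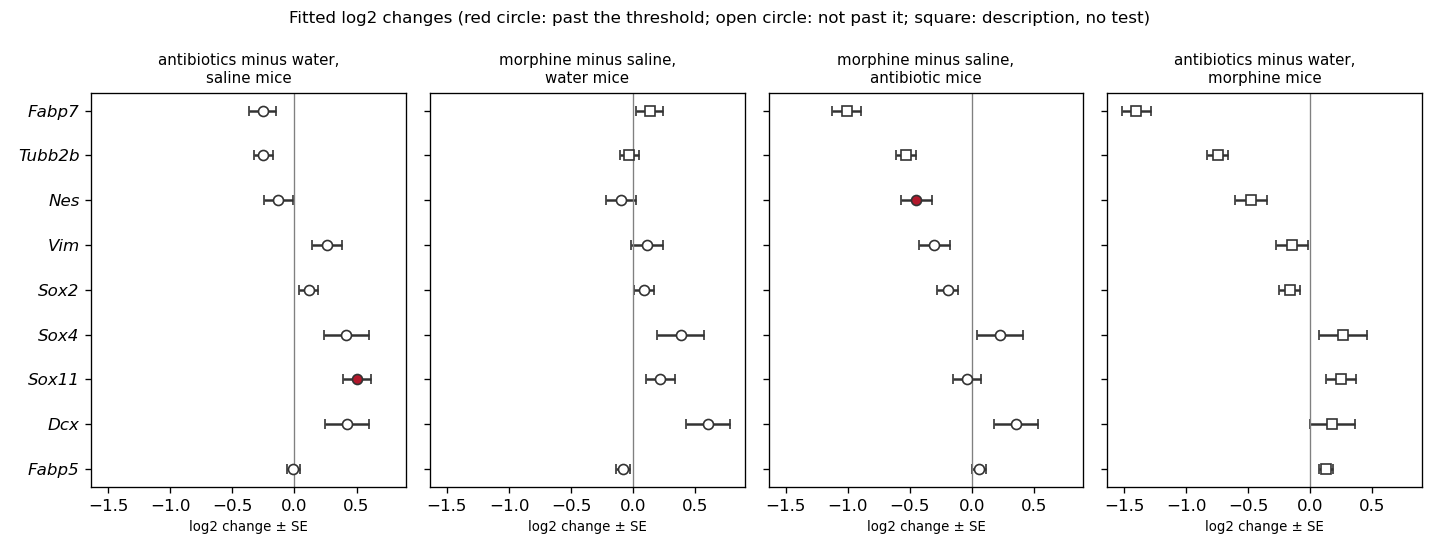
Fitted log2 change (horizontal axes, ± SE) of the 9 genes in the 4 contrasts, with values right of 0 higher in the group named first. Red circles passed at adjusted p under 0.05 (Sox11 at 0.50, Nes at -0.45), open circles did not pass and squares were not tested.

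Set side by side, the 9 genes did not all move the same way in any pairwise contrast. With antibiotics under saline, 1 of 9 passed, as higher, and 0 passed as lower (edgeR); 6 of 9 had an unadjusted p under 0.05, with Sox4, Sox11, Dcx and Vim higher and Fabp7 and Tubb2b lower. In that contrast 1.41% of all genes were called, 0.542% as higher. Of all genes tested, 2513 had an unadjusted p under 0.05 there. With morphine in water mice 0 of the 7 members that could be tested passed (edgeR; 1 had an unadjusted p under 0.05, and DESeq2 and limma-voom each called 1), against 6.58% of all genes. Of all genes tested, 3308 had an unadjusted p under 0.05 in that contrast. With morphine in antibiotic mice 1 of 7 passed, as lower, against 13.0% of all genes called in either direction and 6.62% as lower, a share near this background and no result about the genes as a group. For the difference between the morphine changes 0 of 7 passed (edgeR; 2 had an unadjusted p under 0.05, and DESeq2 and limma-voom called 0), against 0.467%. Of all genes tested, 1791 had an unadjusted p under 0.05 for that difference. With antibiotics under morphine, the contrast of the choice, 4 of 9 had changes above 0, and 3 (Fabp7, Tubb2b and Nes) were lower without overlap of the groups. Nothing is read from that count; 6.82% of all genes were lower without overlap there, and 18.0% were called in either direction.

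The median over the 9 members was 0.12 for antibiotics under saline, 0.11 for morphine in water mice, -0.20 for morphine in antibiotic mice and -0.15 for antibiotics under morphine. For the difference between the morphine changes it was -0.28, and only 1 of the 9, Fabp5, was above 0. Fabp7 and Tubb2b, which carry no test there, are included in that median. Over all genes tested each of these medians was within 0.01 of 0. Several contrasts share libraries, so their values are not independent of each other.

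Levels of different genes are compared per kilobase of the longest coding transcript. In antibiotic morphine mice the order was Fabp5 (116 CPM per kb), Tubb2b (42.5), Sox2 (16.0), Vim (13.9), Fabp7 (12.4), Sox4 (6.66), Dcx (4.29), Sox11 (4.16) and Nes (2.20). In water saline mice it was Fabp5 (112), Tubb2b (73.0), Fabp7 (29.8), Sox2 (16.9), Vim (14.2), Sox4 (4.27), Nes (3.30), Sox11 (3.02) and Dcx (2.49). Fabp7 thus stood above Sox2 and Vim per kilobase in water saline mice and below both in antibiotic morphine mice. In antibiotic morphine mice Vim, at 13.9 ± 2.44, and Fabp7, at 12.4 ± 1.70 (SD, n = 5 each), differed by less than the SD of Vim. In water saline mice Dcx, Sox11 and Nes, at 2.49 ± 0.566, 3.02 ± 0.449 and 3.30 ± 0.577 (SD, n = 6 each), each differed from the next by less than the larger SD.

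Inside groups, after centring each group on its own mean, the closest pairs of members did not include Fabp7. Over the 22 libraries Pearson's r was 0.82 between Sox4 and Dcx and 0.80 between Sox2 and Sox11. Vim had r of 0.64 with Dcx and 0.63 with Tubb2b. Fabp7 and Tubb2b, whose uncentred r was 0.88, had a centred r of 0.11, so libraries of 1 group that were high in Fabp7 were not the ones high in Tubb2b. Fabp7 had r of -0.41 with both Dcx and the length slope, and Tubb2b r of -0.44 with the slope. These are descriptions: libraries share depth, dissection and scaling, and no p is given.

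**Figure D4:**
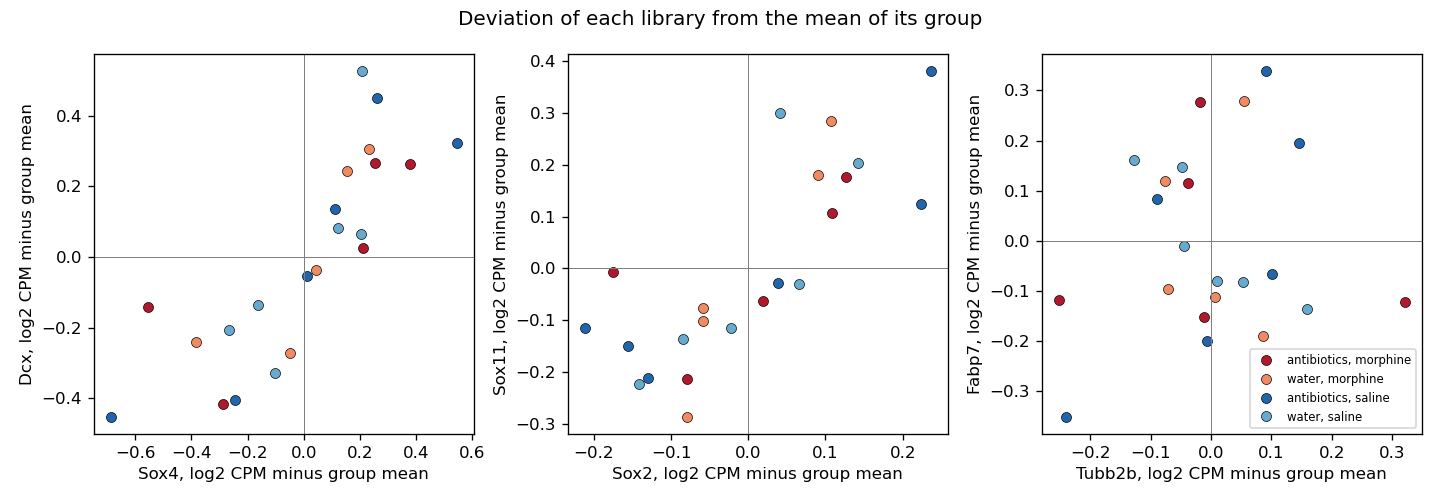
Deviation of each of the 22 libraries from its group mean in log2 CPM, for Dcx against Sox4, Sox11 against Sox2 and Fabp7 against Tubb2b. The first panels follow a diagonal (r = 0.82 and 0.80), and the last does not (r = 0.11).

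Genes with systematic clone, predicted or date-like names were left out of the search for the closest genes. Of the rest, the genes whose centred levels ran closest to Fabp7 over the 22 libraries were Yipf1 (r = 0.76), Mpv17l2 (0.72), Ltbr (0.71), Adck1 (0.71) and Commd1 (0.70). Closest to Tubb2b were Prkcdbp (0.84), C1qtnf6 (0.79), Irf7 (0.78), Ddit4 (0.78) and Plcd1 (0.77). With antibiotics under morphine, Yipf1, a Golgi membrane protein, fell by 0.21 ± 0.062 on the log2 scale (edgeR, adjusted p = 0.0221), Ltbr, the lymphotoxin beta receptor, by 0.37 ± 0.116 (edgeR, adjusted p = 0.0287) and Commd1, a regulator of copper handling, by 0.31 ± 0.0761 (edgeR, adjusted p = 0.00642). Mpv17l2 and Adck1 did not pass, at 0.06 ± 0.0926 and -0.08 ± 0.0542. In that contrast 9.58% of all genes were called lower, and these 5 genes were picked on the same libraries. Of those closest to Tubb2b, Prkcdbp, a protein of caveolae, fell with morphine in antibiotic mice (-0.41 ± 0.116; edgeR, adjusted p = 0.0226), where 6.62% of all genes were called lower. None of the 5 passed with antibiotics under morphine (edgeR, adjusted p between 0.0593 and 0.269).

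Other genes of neural stem cells and radial glia showed few changes. Of 27, 3 rose with morphine in water mice, where 3.91% of all genes were called higher: Ptprz1, a receptor phosphatase of radial glia and glial precursors, by 0.31 ± 0.0558 (edgeR, adjusted p = 0.00275), Egfr by 0.38 ± 0.0966 (edgeR, adjusted p = 0.0211) and Notch2 by 0.29 ± 0.0765 (edgeR, adjusted p = 0.0258). With the length slope as covariate 0 of all genes passed in that contrast, against 959 without it, so these calls were lost. Slope and morphine are hard to tell apart in water mice, so this loss does not show which of them the calls followed. With antibiotics under morphine 2 of 27 fell, where 9.58% of all genes were called lower; DESeq2 called 5. Ptprz1 had 229 ± 19.6 CPM in antibiotic and 292 ± 14.4 CPM in water morphine mice (log2 change -0.35 ± 0.0585; edgeR, adjusted p = 0.000214), and Slc1a3, the glutamate transporter of radial glia and astrocytes, changed by -0.19 ± 0.0608 (edgeR, adjusted p = 0.0289). With morphine in antibiotic mice Nr2e1, a nuclear receptor of adult stem cells, was the only 1 of 27 to pass, at -0.30 ± 0.094 (edgeR, adjusted p = 0.0347), where 6.62% of all genes were called lower. With antibiotics under saline 0 of 27 passed (edgeR; an unadjusted p under 0.05 was reached by 7 upward and 0 downward, and DESeq2 called 0). The medians were -0.08 for antibiotics under morphine, 0.13 for morphine in water mice, -0.03 for morphine in antibiotic mice and 0.14 for antibiotics under saline.

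Among 28 other neuroblast and immature neuron genes, 3 fell and 1 rose with antibiotics under morphine, where 9.58% of all genes were called lower and 8.42% higher, so the share that fell is near the background. DESeq2 called 5 lower and 1 higher. Ncam1, the neural cell adhesion molecule, fell to 303 ± 12.1 CPM in antibiotic mice, against 362 ± 25.0 CPM in water mice (log2 change -0.26 ± 0.0464; edgeR, adjusted p = 0.000489). Gap43, a growth cone protein, changed by -0.23 ± 0.0576 (edgeR, adjusted p = 0.00756) and Dpysl5, a protein of axon guidance, by -0.18 ± 0.0603 (edgeR, adjusted p = 0.0449). Dclk1, a relative of doublecortin, rose to 1097 ± 78.0 CPM in antibiotic mice, against 826 ± 111 CPM in water mice (log2 change 0.41 ± 0.0945; edgeR, adjusted p = 0.00413). With morphine in antibiotic mice 3 of 28 fell, Gap43, Ncam1 and Tmsb10, and 1 rose, Dclk1 by 0.36 ± 0.0902 (edgeR, adjusted p = 0.0108), where 6.62% of all genes were called lower and 6.43% higher. Tubb3, a widely used marker of young neurons, did not pass there (-0.21 ± 0.0763; edgeR, adjusted p = 0.0674). In the contrasts of morphine in water mice and antibiotics under saline 0 of 28 passed (edgeR; 5 and 7 at an unadjusted p under 0.05, and DESeq2 called 1 in each, with no adjusted p for 2 genes with morphine in water mice).

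Cell cycle genes, 18 in number, had medians of 0.49 for antibiotics under saline and 0.44 for morphine in water mice, the largest medians of the lists of progenitor, neuroblast, cycling, tubulin, lipid-binding and filament genes. They passed as single genes seldom. Tyms, thymidylate synthase, rose with morphine in water mice (0.71 ± 0.191; edgeR, adjusted p = 0.0276), a call lost with the length slope as covariate, like every other call in that contrast. DESeq2 gave no adjusted p there for 7 of the 18, Tyms among them, and called 0 of the others. With antibiotics under morphine the replication helicase genes went apart, with Mcm7 higher (0.30 ± 0.101; edgeR, adjusted p = 0.0408) and Mcm5 lower (-0.41 ± 0.144; edgeR, adjusted p = 0.0483), 1 of 18 in each direction against 8.42% and 9.58% of all genes. With antibiotics under saline 0 of 18 passed (edgeR; 8 were higher at an unadjusted p under 0.05, and DESeq2 called 0). Of 13 other intracellular lipid-binding protein genes, 4 could be tested and 0 passed in any contrast (edgeR; 1 at most had an unadjusted p under 0.05, and DESeq2 called 1 with antibiotics under morphine). For the difference between the morphine changes, 0 genes of the progenitor, neuroblast, cycling and tubulin lists passed (edgeR). At an unadjusted p under 0.05, 4, 5, 4 and 4 were lower and 1 neuroblast gene was higher. DESeq2 called 1 progenitor and 1 neuroblast gene lower there. The medians were -0.17, -0.19, -0.51 and -0.20 in that order, against -0.00546 over all genes. Those of the lipid-binding and filament lists were 0.15 and -0.04.

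Markers of other cell types also fell in the contrasts where Fabp7, Tubb2b and Nes were lower, and some fell with morphine in water mice, where Fabp7 had 0.14 and Tubb2b -0.03. Microglia markers fell at 13 of 15 with antibiotics under morphine and at 13 of 15 with morphine in antibiotic mice, where 9.58% and 6.62% of all genes were called lower. They fell at 8 of 15 with antibiotics under saline and at 4 of 15 with morphine in water mice, where 0.865% and 2.67% were called lower. Their summed level lay between 484 and 573 CPM in antibiotic morphine mice, 645 and 727 in water morphine mice, 588 and 725 in antibiotic saline mice, and 757 and 808 in water saline mice. Oligodendrocyte precursor markers fell at 7 of 13 with antibiotics under morphine, among them Olig2, a transcription factor of the lineage (-0.68 ± 0.0845; edgeR, adjusted p = 9.15e-06). They fell at 6 of 13 with morphine in antibiotic mice, at 3 of 13 with antibiotics under saline and at 0 of 13 with morphine in water mice (edgeR; 1 was lower and 1 higher there at an unadjusted p under 0.05, and DESeq2 called 0). For the difference between the morphine changes 1 of 13 passed as lower, Gpr17 (-0.42 ± 0.0908, edgeR, adjusted p = 0.0337), against 0.467% of all genes. Of the microglia markers 0 of 15 passed for that difference (edgeR), and DESeq2 called 2 lower. The sum of the precursor markers lay between 692 and 754 CPM in antibiotic morphine mice, 838 and 907 in water morphine mice, 777 and 869 in antibiotic saline mice, and 876 and 930.0 in water saline mice. No marker of either list was at 0 throughout. The part of these cells in the levels of the 9 genes was not tested.

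Astrocyte markers fell at 6 of 18 and rose at 1 with antibiotics under morphine, where 9.58% of all genes were called lower and 8.42% higher. Aqp4, the water channel of astrocyte endfeet, had 50.4 ± 6.66 CPM in antibiotic and 69.5 ± 4.89 CPM in water morphine mice (log2 change -0.46 ± 0.0847; edgeR, adjusted p = 0.00053). The summed level of the 18 lay between 7659 and 8467 CPM in antibiotic morphine mice, 8367 and 8667 in water morphine mice, 7616 and 8740 in antibiotic saline mice, and 8124 and 8848 in water saline mice. Endothelial markers fell at 4 of 13 and pericyte and smooth muscle markers at 2 of 12 in the same contrast. The pericyte calls were Cspg4 and Vtn, and Cspg4 was also counted among the oligodendrocyte precursor markers. The endothelial and the pericyte and smooth muscle sums averaged 359 ± 24.6 and 237 ± 18.1 CPM in antibiotic morphine mice. They averaged 392 ± 16.9 and 275 ± 23.3 CPM in water morphine mice (SD, n = 5 each). Meningeal fibroblast markers fell at 1 of 10 and ependymal markers at 1 of 12, Pltp (-0.50 ± 0.0943; edgeR, adjusted p = 0.000718). None of these markers was at 0 in every library, and their part in the 9 genes was not tested. The counts of 1 in 10 and 1 in 12 are near the background. With morphine in antibiotic mice, where Nes fell, 2 of 13 endothelial, 2 of 12 pericyte and smooth muscle, 2 of 18 astrocyte, 2 of 10 meningeal and 1 of 12 ependymal markers fell, against 6.62% of all genes. With morphine in water mice 3 of 13 endothelial and 1 of 12 pericyte and smooth muscle markers fell, against 2.67%. With antibiotics under saline 1 of 13 endothelial markers fell, Itm2a (-0.33 ± 0.0782, edgeR, adjusted p = 0.0344), against 0.865% of all genes. There 9 of 13 were lower at an unadjusted p under 0.05 (edgeR), and DESeq2 called 3. In that contrast 0 of 12 pericyte and smooth muscle and 0 of 18 astrocyte markers passed (edgeR), and DESeq2 called 1 of each lower.

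Beside the rise of Sox11 with antibiotics under saline, the ependymal markers had a median change of 0.87, with 0 of 12 past the test (edgeR; an unadjusted p under 0.05 was reached by 6 upward and 1 downward, and DESeq2 called 1). Ependymal cells line the ventricle next to the germinal zone. Their summed level lay between 66.6 and 131 CPM in antibiotic saline mice and 85.1 and 108 CPM in water saline mice, and no marker was at 0 throughout. Pltp alone averaged 59.0 ± 10.2 CPM in antibiotic and 71.1 ± 3.34 CPM in water saline mice (SD, n = 6 each). The sums averaged 101 and 96.9 CPM. The log2 change of Pltp was -0.27 ± 0.0854 (edgeR, adjusted p = 0.11), so the sums mostly hold Pltp and do not show the median change. Cortical projection neuron markers, a list added after the data were seen, summed to between 398 and 1963 CPM in antibiotic saline mice and 332 and 1076 CPM in water saline mice. With a score of these markers as covariate, Sox11 kept its call (log2 change 0.52; edgeR, adjusted p = 0.0156). That score averaged 0.60 ± 0.722 in antibiotic morphine mice and -0.92 ± 1.67 in water morphine mice (SD). Its ranges, -0.459 to 1.345 and -2.557 to 1.75, overlapped. The summed level averaged 901 ± 340 CPM in antibiotic morphine mice and 602 ± 563 CPM in water morphine mice (SD). The morphine groups were thus not shown to be alike in cortical markers. The part of the ependymal markers in the level of Sox11 was not tested.

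**Figure D5:**
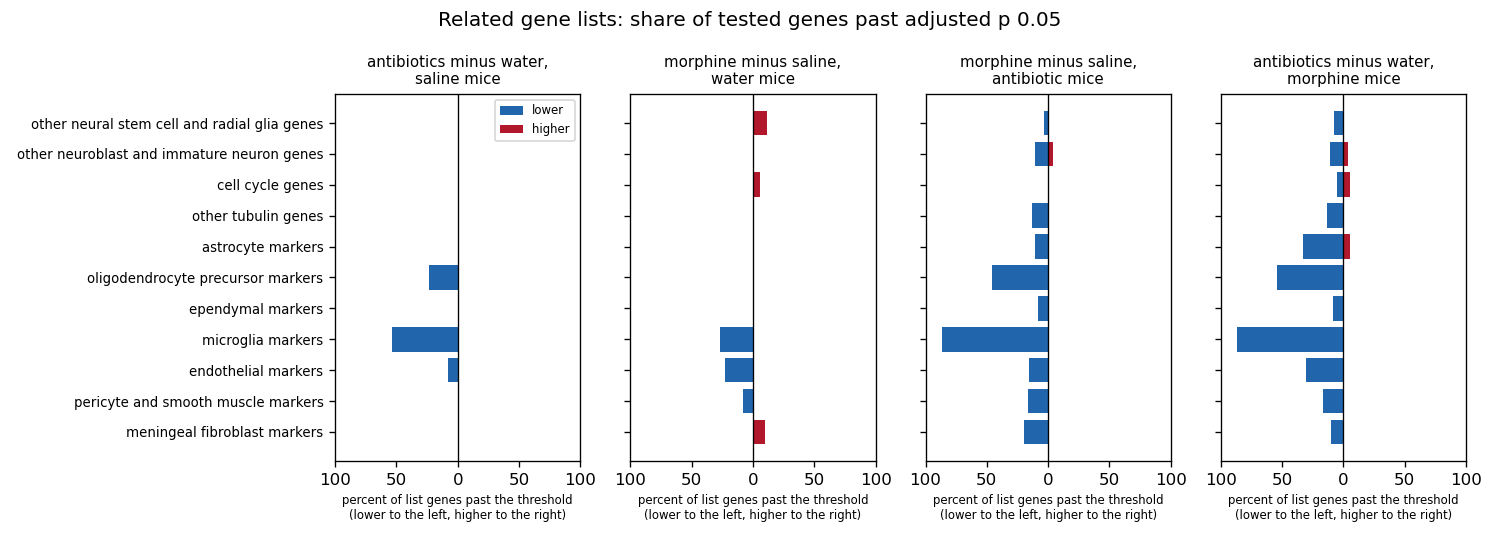
Percent of tested genes of each related list that passed as lower (left of 0) or higher (right of 0) in the 4 contrasts at adjusted p under 0.05. Microglia and oligodendrocyte precursor markers reach 13 of 15 and 7 of 13 lower with antibiotics under morphine, while the progenitor and neuroblast lists have 2 of 27 and 3 of 28 lower there.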

How the data were processed

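RNA of the nucleus accumbens was reverse transcribed with the SMARTer kit, fragmented and sequenced, per the labels' protocols. Alignment by the authors used STAR 2.4.0, with FastQC and edgeR also named, per the submitters' processing notes. For the genome build, annotation, counting tool and strand setting, the entry is: not given in the sources used here. The authors deposited raw read counts per gene for 22 libraries, which were used here, and a normalised table, which was not. The 5 summary entries (reads outside genes, ambiguous or not unique), which made up 20.6% to 26.4% per library, were taken out, and total counts ran from 11789713 to 19755139.

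Counts were filtered with filterByExpr (14564 of 24061 genes kept; 4053 had 0 in every library), scaled by TMM and fitted in 1 robust quasi-likelihood model of 4 groups (edgeR 4.0.16, limma 3.58.1, DESeq2 1.42.0, R 4.3.3). Two-sided tests were adjusted by Benjamini-Hochberg over all genes tested, and the threshold for passing was an adjusted p under 0.05. The standard error is the size of a log2 change divided by the square root of F, and 95% intervals span 1.96 standard errors each way. Log2 CPM used a prior count of 2. Transcript lengths are those of the longest coding transcript in GENCODE vM21. Ratios of counts were compared with exact permutation tests over libraries.

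The 9 members and the 15 other lists were chosen with earlier results of these data known, and the list of cortical markers was added later still. Cspg4, Slc1a3, Sox9, Gfap and Tubb3 stand on more than 1 of the other lists and are counted in each. All 9 members are given in every contrast. From each other list the text names up to 4 genes that pass with the smallest p, and up to 3 with the highest level. For Fabp7 and Tubb2b it names the 5 genes with the highest centred correlation, leaving out systematic clone, predicted and date-like names. Sox2ot and Tubb2a were named for their place at or likeness to a member, and the promoters of Nes and Sox11 were added to that of Fabp7 after their values were seen. On simulated counts for antibiotics minus water under saline (14564 genes), the procedure found 40% of the genes given a 1.25-fold change, 78% for 1.5-fold, 82% for 2-fold and 96% for 3-fold. It made 8 false calls. No pair of libraries within a group agreed within sampling noise: over 50 pairs, counts differed by 3.19 to 22.9 times the variance that re-sequencing 1 library would give. Alternatives were RLE size factors, no filter, DESeq2, limma-voom, only the groups compared, a replicate block, a length slope covariate, a cortical marker score as covariate (chosen after seeing the data), leaving out each library, and leaving out the pair of libraries with the highest Malat1 together. Intervals and tests cover the spread between these libraries.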

Additional observations from a re-analysis of the deposited data

How the results depend on the processing

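Of the members' changes, Sox11 and Nes lost and Dcx, Tubb2b and Vim gained a call in the settings named with them, and Sox11, Tubb2b and Vim also changed sides with the replicate block. Members called with antibiotics under saline were 1, and 0 with only the groups compared and with the length slope as covariate (0 to 2 without single libraries). With morphine in water mice they were 0, and 1 with DESeq2, limma-voom, only the groups compared or the cortical score (0 to 1). With morphine in antibiotic mice they were 1, 0 with the length slope and 2 with the replicate block (0 to 2). For the difference they were 0 under every setting run. All genes called with antibiotics under saline were 205, 420 with DESeq2, 67 with only the groups compared, 46 with the length slope, 362 with the cortical score, 74 without library 6 of antibiotic saline and library 4 of antibiotic morphine mice together, and 105 with the replicate block (48 to 409 without single libraries). With morphine in water mice they were 959, 0 with the length slope and 281 with the block (509 to 1118). With morphine in antibiotic mice they were 1900, 1187 with only the groups compared and 138 with the length slope (1084 to 2048). For antibiotics under morphine they were 2621 (1877 to 2824 without single libraries). For the difference they were 68, 181 with DESeq2, 160 with the cortical score and 10 with the block (28 to 100). Most morphine libraries have a higher length slope than most saline libraries, and in water mice all of them do, so that covariate and morphine are hard to tell apart. With the length slope, morphine in water mice gave Tubb2b 0.19 and morphine in antibiotic mice -0.37. Changes near 0 turned sign: Fabp5 with antibiotics under saline came to 0.0308 with the length slope and 0.00172 without that pair of libraries, and lay between -0.0366 and 0.0194 without single libraries. Fabp5 with morphine in water mice came to 0.0341 with the length slope. Sox11 with morphine in antibiotic mice came to 0.0176 with the length slope, and lay between -0.0829 and 0.0481 without single libraries. None of these was past the threshold, and the cause was not tested. The numbers in the titles did not pair the libraries: of 17 same-numbered pairs, deviations correlated between -0.478 and 0.353, over 0.1 in 6. With the replicate block, Sox11 under saline had an adjusted p of 0.0856, Tubb2b 0.044, and Vim with morphine in antibiotic mice 0.05 (edgeR), which rounds up from a value just under the threshold. Depth limits the least abundant list genes, such as Birc5 with group means between 0.65 and 0.82 CPM, more than the members.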
